A study of Homo sapiens with 7 samples.

Results

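Constitutive intergenic regions near genes are stretches of open chromatin that lie outside every protein-coding gene yet close to one, and that were accessible in every library of the series. They were chosen from the peak list of the vehicle 7 library on chromosomes 1 to 22 and X. A region was kept when it overlapped at least 1 peak in each of the other 6 lists, overlapped no protein-coding gene body of RefSeq, and lay over 1 kb and up to 200 kb from the nearest end of such a gene. The rule was met by 3051 of the 32828 peaks of vehicle 7 (9.29%), and by 17.5% of the 17462 regions found in all 7 lists. The other constitutive regions comprised 8973 within 1 kb of a gene end, 4603 inside a gene and 835 intergenic regions beyond 200 kb. Because presence in every list and position chose the regions, presence and strength of the peaks are given as descriptions, and a region that opened or closed entirely under stress cannot be among them.

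The study asked how blocking mitochondrial respiration alters chromatin accessibility, which was measured by ATAC-seq (a transposase, Tn5, inserts sequencing adapters where DNA is exposed). The stressed group held 4 libraries (6, 7, 8 and 9) of neurons exposed for 8 h to antimycin A at 25 µM, a blocker of respiratory complex III, and oligomycin at 10 µM, a blocker of ATP synthase. The vehicle group held 3 libraries (6, 7 and 8) that received DMSO. All 7 came from wild-type LUHMES, a single conditionally immortalised line from human fetal mesencephalon, grown for 6 days with tetracycline, dibutyryl cAMP and GDNF towards dopaminergic neurons, and the study describes the cultures of each group as independent batches.

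Intergenic accessible regions include enhancers, which activate genes at a distance, insulators bound by CTCF, and the promoters of genes that make no protein. Long noncoding RNAs (lncRNAs), transfer RNAs, small nuclear RNAs and microRNAs are often encoded between protein-coding genes, and their promoters can stay open in many cell types, whereas enhancers tend to be open in few. In neurons, distal elements near lineage transcription factors and axon guidance genes carry much of the cell type's identity. An interval between genes can serve a gene other than the nearest one, so the nearest gene is used below only as an address.

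Promoter sequences are shown for 5 lncRNA genes whose promoter window, 250 bases before to 50 after the start, fell in one of these regions, because lncRNA promoters were found more often in these regions than in intergenic peaks that were missing from some list. Sequences and coordinates are from RefSeq on GRCh38.p14, 5′ to 3′ on the strand of the gene. Capitals mark matches on either strand to the CCAAT box of NFY, to the SP/KLF motif GGGGCGGGG or to the YY1 motif AAGATGGC. The windows are DANCR at chr4:52712144-52712443 (plus strand), SNHG5 at chr6:85678684-85678983 (minus strand), CHASERR at chr15:92882593-92882892 (plus strand), MIR17HG at chr13:91347437-91347736 (plus strand) and MIRLET7IHG at chr12:62602493-62602792 (plus strand).
DANCR: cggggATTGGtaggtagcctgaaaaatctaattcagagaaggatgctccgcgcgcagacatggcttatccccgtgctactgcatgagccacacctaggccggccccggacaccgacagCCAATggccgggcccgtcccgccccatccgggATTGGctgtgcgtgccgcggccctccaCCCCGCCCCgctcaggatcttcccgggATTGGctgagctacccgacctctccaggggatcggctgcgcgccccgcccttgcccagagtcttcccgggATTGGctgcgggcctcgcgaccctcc
SNHG5: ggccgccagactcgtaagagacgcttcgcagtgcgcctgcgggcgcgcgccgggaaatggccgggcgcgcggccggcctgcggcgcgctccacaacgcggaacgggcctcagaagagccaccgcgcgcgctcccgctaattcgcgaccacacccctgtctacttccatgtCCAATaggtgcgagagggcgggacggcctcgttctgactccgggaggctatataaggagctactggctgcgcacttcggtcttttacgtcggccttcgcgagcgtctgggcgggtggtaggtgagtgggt
CHASERR: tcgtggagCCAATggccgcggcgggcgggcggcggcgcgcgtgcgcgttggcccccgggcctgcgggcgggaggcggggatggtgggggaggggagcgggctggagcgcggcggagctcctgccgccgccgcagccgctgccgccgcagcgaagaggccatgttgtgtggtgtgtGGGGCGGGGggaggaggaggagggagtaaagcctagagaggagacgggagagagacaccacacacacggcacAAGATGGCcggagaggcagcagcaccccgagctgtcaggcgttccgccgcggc
MIR17HG: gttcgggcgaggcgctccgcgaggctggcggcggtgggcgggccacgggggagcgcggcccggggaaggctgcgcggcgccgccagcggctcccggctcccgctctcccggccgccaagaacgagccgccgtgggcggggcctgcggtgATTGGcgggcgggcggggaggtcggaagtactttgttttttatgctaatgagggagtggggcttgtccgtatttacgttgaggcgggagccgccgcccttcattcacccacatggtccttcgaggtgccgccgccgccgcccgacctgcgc
MIRLET7IHG: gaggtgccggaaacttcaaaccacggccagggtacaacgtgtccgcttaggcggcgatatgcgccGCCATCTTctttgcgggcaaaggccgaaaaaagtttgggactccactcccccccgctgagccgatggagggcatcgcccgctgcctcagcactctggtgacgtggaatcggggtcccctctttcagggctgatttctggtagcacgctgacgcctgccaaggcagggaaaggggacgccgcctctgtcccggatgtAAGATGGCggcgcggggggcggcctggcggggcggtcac
The DANCR window held 5 CCAAT boxes, at -245, -132, -100, -46 and 24 relative to the start, and an SP/KLF match at -73. As many CCAAT boxes were found in 2 of the 299 lncRNA windows that overlapped these regions (0.669%) and in 0.355% of all 34961 RefSeq promoter windows. SNHG5, CHASERR and MIR17HG held 1 CCAAT box each. CHASERR also held an SP/KLF match at -75 and a YY1 match at -3, next to the start, and MIRLET7IHG held 2 YY1 matches, at -185 and 11. The YY1 motif was found in 5 of the 299 windows (1.67%) and in 2.89% of all windows. A match describes the letters of a window and is not a measured binding site.

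Mature microRNAs are shown for 4 of the 11 regions that held a hairpin, those of let-7i, miR-210, the pair miR-183 and miR-96, and the DANCR region. Capitals mark the seed, bases 2 to 8, which pairs with target transcripts, and no seed was shared between them.
hsa-let-7i-5p: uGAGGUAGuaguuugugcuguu
hsa-miR-210-3p: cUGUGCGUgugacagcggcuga
hsa-miR-183-5p: uAUGGCACugguagaauucacu
hsa-miR-96-5p: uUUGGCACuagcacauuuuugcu
hsa-miR-4449: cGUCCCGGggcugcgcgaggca
The sequence of let-7i lies at chr12:62603691-62603712 (plus strand), within the same region as the MIRLET7IHG window. Those of miR-183 and miR-96 lie at chr7:129774967-129774988 and chr7:129774739-129774761 (minus strand), in 1 region. Mature miR-210-3p lies at chr11:568112-568133 (minus strand) and crosses the edge of its region. That of miR-4449 lies at chr4:52712720-52712741 (plus strand), in the DANCR region.

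The peak lists differed in length, with 53063 to 248900 peaks in the stressed libraries and 32828 to 159902 in the vehicle libraries, and read totals were not known. Strength is therefore given as a percentile, the rank of a region's highest peak enrichment among the 17462 constitutive regions of the same library. In the shorter lists many regions tie: the 3051 regions took 49 distinct enrichment values in stressed 8 and 50 in vehicle 7, against 248 in stressed 7. Markers were checked by constitutive regions at gene ends, which 11 of 13 pan-neuronal, 5 of 11 dopaminergic, 2 of 7 progenitor, 0 of 8 glial and 1 of 10 mesenchymal or endothelial genes had. Among the dopaminergic markers the transporter gene SLC6A3 and the transcription factor genes NR4A2, PITX3, EN1 and OTX2 had one, while TH, DDC, SLC18A2, LMX1A, LMX1B and FOXA2 had none. The label of neurons was thus met at gene ends more fully than that of dopaminergic cells.

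Intergenic peaks near genes were less often shared by all libraries than peaks at gene ends. Of the 7936 vehicle 7 peaks that met the position rule, 38.4% were found in every list, against 81.1% at gene ends, 40.4% inside genes and 34.2% beyond 200 kb. Stressed libraries 6 to 9 held 80.5%, 86.4%, 52.2% and 58% of these peaks, and vehicle 6 and 8 held 54.3% and 79%. The 3 longest of these lists held the largest shares, while the order among the 3 shorter ones did not follow length. The 3051 regions lay a median of 28408 bp from a gene end, with quartiles of 9955 and 74024 bp, and their median width in vehicle 7 was 404 bp, from 162 to 6744 bp. By chromosome, they made up 30% of the constitutive regions of chromosome 21 and 9.71% of those of gene-dense chromosome 19.

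In strength they ranked below regions at gene ends in every library. Their median percentile was 37.8, 31.4, 36.6 and 34.7 in stressed 6 to 9 and 38.3, 40.3 and 39.4 in vehicle 6 to 8. At gene ends the medians were 61.0, 63.9, 61.9 and 64.4 in the stressed libraries and 60.4, 56.6 and 58.9 in the vehicle libraries. For the intergenic regions every stressed library lay below every vehicle library, and at gene ends every stressed library lay above. Group means for the intergenic regions were 35.1 ± 2.79 (SD) in 4 stressed libraries and 39.3 ± 1.00 (SD) in 3 vehicle libraries, and for gene ends 62.8 ± 1.61 in stressed and 58.6 ± 1.91 in vehicle libraries. Inside genes the means were 36.3 ± 1.97 in stressed and 40.5 ± 2.31 in vehicle libraries, and beyond 200 kb 33.1 ± 6.0 and 47.4 ± 9.08. The low rank and the lower stressed mean were thus not particular to the intergenic regions near genes. Ranks within a library are relative, so a gain of one class is a loss of another. Peaks over the intergenic regions also differed in width, with medians of 1063, 1600, 559 and 847 bp in stressed 6 to 9 and 577, 404 and 1014 bp in vehicle 6 to 8, and the part of width in these ranks was not tested. Few regions were strong throughout: 141 (4.62%) stood above percentile 75 in all 7 libraries, against 17.1% at gene ends, and 225 (7.37%) stood below percentile 25 in all 7. Regions inside genes had nearly the same shares, 4.69% and 7.45%.

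**Figure D1:**
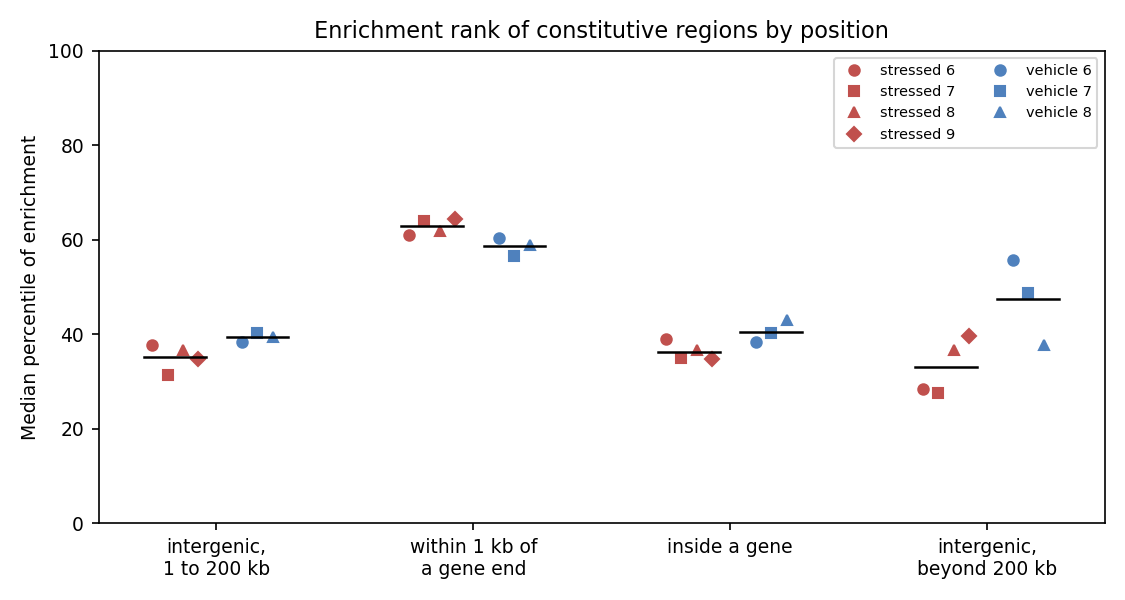
Median percentile of enrichment (y axis, rank among the 17462 constitutive regions of a library) of constitutive regions in 4 positions, with a point per library (stressed in red, vehicle in blue) and a black line at the group mean. The intergenic regions 1 to 200 kb from a gene sit between 31.4 and 40.3 and those at gene ends between 56.6 and 64.4. Regions inside genes sit between 34.7 and 42.9, and those beyond 200 kb between 27.6 and 55.7.

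Most of the strongest of the 3051 regions fell into 2 kinds of place. The first was DNA beside centromeres, on the short arms of acrocentric chromosomes or near a chromosome end, where repeats are abundant and the nearest protein-coding gene is often an uncharacterised LOC entry. The region at chr16:46385330-46392073, 186518 bp from SHCBP1, was the widest at 6744 bp and stood at percentile 100 in all 7 libraries. The same percentile was reached in all 7 at chr16:34586483-34588586, 196662 bp from LOC124903767. Other members of the 10 strongest lay on chromosome 21 at chr21:6368332-6372882 and chr21:7926125-7926780, on chromosome 18 at chr18:106589-111987 and on chromosome 15 at chr15:20356198-20359144. Peaks in such repeats can collect reads from several near-identical copies, so their strength is uncertain.

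The second kind was a single strong peak away from such places, where it was not measured whether the sequence is unique. Next after the 12 strongest came one nearest to TMEM161B at chr5:88140888-88141841, which ranked at percentiles 98.6, 98.1, 99.4 and 98.4 in stressed 6 to 9 and 99.6, 98.9 and 99.6 in vehicle 6 to 8. Another, at chr12:14257561-14258495, lay 107187 bp from ATF7IP, whose product takes part in heterochromatin formation, and ranked between 97.2 and 99.2 in all libraries. A region 151823 bp from ELAVL2, which encodes a neuronal RNA-binding protein of the Hu family, at chr9:23537506-23538281, ranked at 98.7, 99.1, 98.6 and 95.6 in the stressed and 99.2, 99.4 and 99.8 in the vehicle libraries. All 3 thus stood above percentile 95 in every library.

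Most regions stood alone. With a gap of 10 kb between neighbours, 2380 were single, 514 lay in runs of 2 or 3, and 157 (5.15%) lay in 24 runs of 4 or more. The longest run held 22 regions over 67089 bp near LOC124903442 on chromosome 15, of which 19 shared a peak with another region, and 33 regions in all had that gene nearest. Other runs included 7 regions over 30789 bp beside MEF2C, a transcription factor of neurons and muscle. They also included 5 over 15740 bp beside NR2F2, an orphan nuclear receptor, and 7 over 14130 bp beside SKIDA1. Because a wide peak in another library can span several vehicle 7 peaks, 411 of the 3051 regions (13.5%) shared their strongest peak with another constitutive region in at least 1 library. Such regions are not independent observations.

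Many of the regions overlapped the promoter window of a lncRNA. At least 1 bp of such a window lay in 255 regions (8.36%). The share was 1.70% of the 4885 peaks that met the position rule but were not in every list. It was 2.87% of constitutive regions beyond 200 kb and 4.91% of those inside genes. The 255 regions overlapped 299 windows of 269 genes, not all of them whole, and the summit lay a median of 117 bp from the start. Windows on both strands, as at divergent promoters, were found in 18 regions. A further 688 regions lay in a lncRNA body without its promoter window, and 1892 (62.0%) held no RefSeq gene and no lncRNA promoter window. Presence in every list favours strong peaks, so a difference in content from the weaker peaks is a description of what the rule kept.

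DANCR, a lncRNA that restrains differentiation of several stem cell types, ranked highest of the 5 promoters printed above. Its region, chr4:52711985-52712891, ranked at percentiles 99.5, 99.1, 95.3 and 96.4 in stressed 6 to 9 and 98.7, 96.7 and 99.0 in vehicle 6 to 8. SNHG5, a host gene of small nucleolar RNAs, ranked at 98.2, 98.2, 96.7 and 92.4 in the stressed and 99.4, 96.7 and 98.7 in the vehicle libraries. The values of both groups overlapped at DANCR and at SNHG5. CHASERR, which lies next to CHD2 and lowers its expression in cis, ranked at 97.4, 94.9, 99.2 and 78.2 in the stressed and 92.7, 92.6 and 95.6 in the vehicle libraries. MIR17HG, the host of the miR-17-92 cluster, had a region 2319 bp wide that ranked at 79.6, 88.0, 88.2 and 70.7 in the stressed and 79.8, 83.7 and 85.4 in the vehicle libraries. Stressed 9 was the lowest library at SNHG5, CHASERR and MIR17HG. The region of MIRLET7IHG, the host of let-7i, differed in pattern: it ranked at 85.1, 83.3, 86.1 and 88.3 in the stressed and 71.9, 68.8 and 82.5 in the vehicle libraries. It also held the promoter window of the lncRNA LINC01465 on the minus strand. The vehicle 7 summit lay 134 bp from the LINC01465 start and 557 bp from that of MIRLET7IHG, outside the window printed above. The values therefore cannot be assigned to either promoter. Every stressed library stood above every vehicle library at this region, with a difference of 0.29 ± 0.15 (SE) in normalised log2 enrichment and an adjusted p of 0.432 in limma, so it did not pass.

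In base composition the lncRNA promoters that overlapped these regions were close to protein-coding promoters and unlike other intergenic lncRNA promoters. Their median GC content was 62.7%, against 47.7% in the 5135 lncRNA windows under the same position rule that held no such region and 62.3% in 22132 protein-coding windows. The ratio of observed to expected CpG had medians of 0.727, 0.229 and 0.738 in these 3 sets, and exceeded 0.6 in 66.2%, 11.4% and 62.2% of windows. CpG-rich promoters are typical of broadly active genes. Of 28 motifs searched on both strands, the ETS motif CCGGAAG was found in 17.4% of the 299 windows, 3.68% of the other intergenic lncRNA windows and 12.8% of protein-coding windows (10.3% of all). The cAMP response element TGACGTCA was found in 5.02%, 0.604% and 2.26% (1.85% of all), and the E-box CAGCTG in 27.8%, 18.2% and 18.0% (18.0% of all). The SP/KLF motif was found in 14.4%, 3.47% and 20.6% (15.7% of all). GATA motifs (AGATAA) ran the other way, with 6.35%, 15.9% and 7.88% (10.3% of all), and CCAAT boxes were found in 39.8%, 35.9% and 34.6% (34.6% of all). Several of these motifs are rich in G, C or CpG, and the part of base composition in their shares was not tested.

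**Figure D2:**
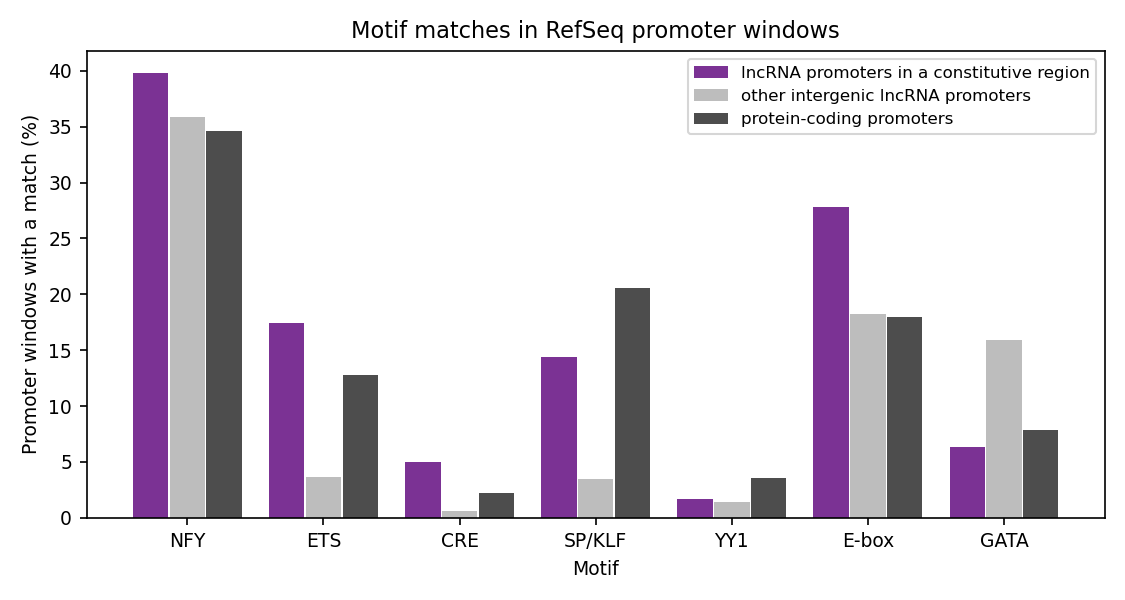
Share of promoter windows of 300 bases with at least 1 match (y axis, percent) to 7 motifs. Purple marks the 299 lncRNA windows that overlap the constitutive intergenic regions. Light grey marks 5135 other intergenic lncRNA windows under the same position rule, and dark grey marks 22132 protein-coding windows. ETS and CRE matches are more frequent in the purple set than in both others, and GATA matches are more frequent in the light grey set.

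Genes of transfer RNAs and small nuclear RNAs were also among the contents. Of 346 tRNA genes in intergenic positions of this kind, 34 (9.83%) lay in 29 of the regions, and a peak in any 1 library covered 22 to 41.6% of them in the stressed and 11.6 to 34.1% in the vehicle libraries. Regions with a tRNA gene had median percentiles of 52.5, 68.6, 56.2 and 64.4 in stressed 6 to 9 and 55.7, 48.8 and 42.9 in vehicle 6 to 8. The groups overlapped through vehicle 6. Regions with 1 of 11 snRNA genes, which encode spliceosomal RNAs, had medians of 51.3, 58.1, 36.6 and 48.9 in the stressed and 71.9, 63.3 and 57.5 in the vehicle libraries, also with overlap. Regions with a lncRNA promoter had medians of 48.9 to 56.2 in the stressed and 49.6 to 56.6 in the vehicle libraries. Regions with no RefSeq gene were the weaker ones, at 28.6 to 36.6 in the stressed and 38.3 to 40.3 in the vehicle libraries.

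The strongest tRNA region was that of TRL-TAA1-1, a leucine tRNA gene 23715 bp from STX11, which ranked at 96.2, 98.9, 98.6 and 98.3 in the stressed and 98.7, 99.3 and 98.4 in the vehicle libraries. A region with the proline and threonine tRNA genes TRP-AGG2-6 and TRT-TGT3-1, at chr14:20613268-20613950, ranked at 79.1, 87.5, 78.4 and 73.4 in the stressed and 31.7, 68.8 and 39.4 in the vehicle libraries. Each stressed library stood above each vehicle library there, and the difference of 0.64 ± 0.19 (SE) had an adjusted p of 0.164 in limma. Over the 29 tRNA regions 21 differences were above 0 and 8 below, with a median of 0.063. Over all 17462 constitutive regions the median was 0.0115, with 48.4% below 0. At gene ends it was 0.0666, with 38.8% below 0, so the tRNA median was near that of gene ends. Near-identical tRNA and snRNA copies can share reads, so single copies are uncertain.

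**Figure D3:**
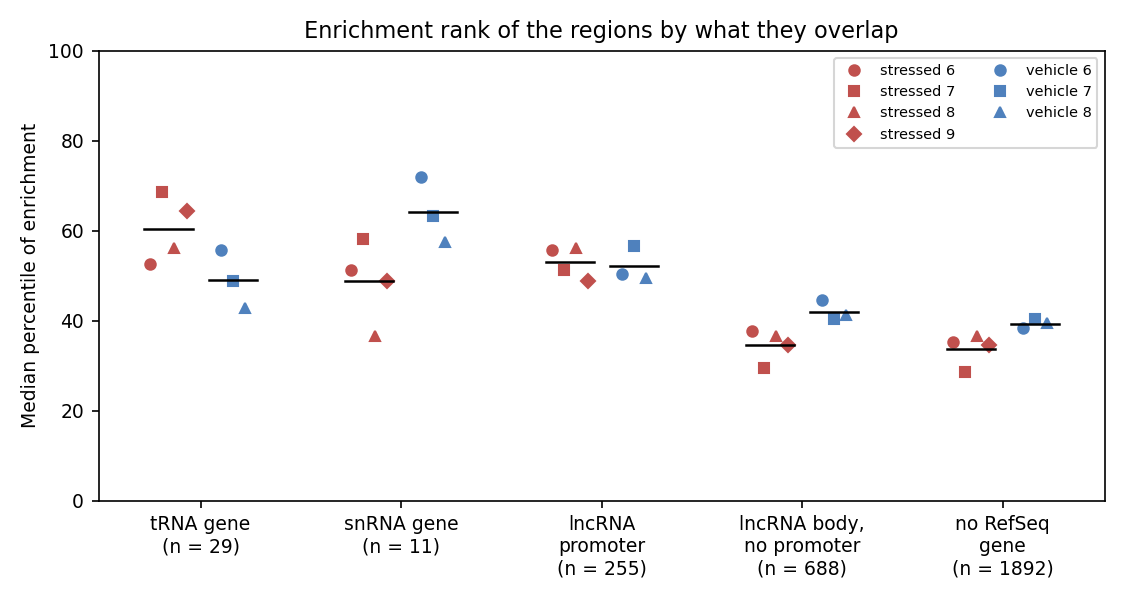
Median percentile of enrichment (y axis) of the intergenic regions by the RefSeq feature they overlap, with a point per library (stressed in red, vehicle in blue) and a black line at the group mean. Regions with a tRNA gene, an snRNA gene or a lncRNA promoter sit above those with a lncRNA body alone or no gene in most libraries, and tRNA and snRNA regions lean in opposite directions between the groups.

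MicroRNA hairpins lay in 11 of the regions, with 12 genes of 511 in such positions (2.35%). MIR210, a microRNA induced by hypoxia and known to act on mitochondrial iron-sulfur cluster assembly, lay in a region at chr11:568118-568769 that ranked at percentiles 32.6, 35.0, 29.4 and 39.7 in stressed 6 to 9 and 5.75, 21.0 and 20.9 in vehicle 6 to 8. All stressed libraries were above all vehicle libraries, yet the difference of 0.40 ± 0.20 (SE) had an adjusted p of 0.407 in limma. MIR183 and MIR96, microRNAs of sensory cells, shared a region that ranked at 45.7, 36.0, 29.4 and 29.6 in the stressed and 38.3, 48.8 and 82.0 in the vehicle libraries, with overlap. That region shared its peak with another constitutive region in at least 1 library. The region of MIR4710, at chr14:104677394-104678289, ranked at 61.0, 66.3, 88.2 and 70.7 in the stressed and 50.4, 4.05 and 37.7 in the vehicle libraries, with a difference of 0.82 ± 0.24 (SE) and an adjusted p of 0.164. Of the 11 regions, 7 had a difference above 0 and 4 below, and 0 passed at an adjusted p under 0.05.

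The regions were spread over many genes. A total of 2111 protein-coding genes were nearest to at least 1 region, which is 10.6% of 19974 genes, and 1540 of these had exactly 1. Lineage transcription factors of neurons stood above that share, with 38 of 75 genes (50.7%) and 62 regions, as did immediate early genes, with 14 of 28 (50%) and 30 regions, and axon guidance and adhesion genes, with 17 of 54 (31.5%) and 23 regions. Genes in gene-poor surroundings are more often the nearest gene, and that was not tested. Most of the other lists also stood above 10.6%, so this was not particular to the 3 lists named. A nearest region was found for 5 of 20 dopaminergic (25%), 5 of 19 pan-neuronal (26.3%) and 5 of 16 glial genes (31.2%). It was found for 2 of 13 mesenchymal or endothelial (15.4%) and 1 of 15 progenitor genes (6.67%). For stress genes the counts were 3 of 32 for the integrated stress response (9.38%) and 4 of 20 for the oxidative stress response (20%). They were 4 of 25 for mitochondrial quality control (16%) and 4 of 26 for glycolysis and hypoxia (15.4%).

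Within these lists the region that stood highest in its lowest library was the one 151823 bp from ELAVL2 described above. Strength differed within a list, and the 5 regions of the oxidative stress response had the lowest median percentile of the 12 lists, 20.9. One of them was nonetheless strong in every library: GCLC, which encodes the catalytic subunit of the first enzyme of glutathione synthesis, had a region 2656 bp away at chr6:53547757-53548680 that ranked at 97.1, 96.2, 95.3 and 96.4 in the stressed and 96.4, 88.4 and 95.6 in the vehicle libraries. The orphan nuclear receptor gene NR2F1 had 4 regions, the strongest at 87.7, 82.7, 86.1 and 87.0 in the stressed and 71.9, 83.7 and 91.8 in the vehicle libraries. Both overlapped between the groups, and this NR2F1 region shared its peak with another constitutive region in at least 1 library. TCF12, a partner of proneural bHLH factors, had a region at percentiles 80.5 to 88.3 in the stressed and 74.9 to 86.3 in the vehicle libraries. The single region of NR4A2, a transcription factor of dopaminergic neurons and an immediate early gene, lay 8923 bp away and ranked at 67.4, 66.9, 81.2 and 75.9 in the stressed and 71.9, 40.3 and 51.3 in the vehicle libraries. RET, the receptor kinase of GDNF signalling, had 3 regions, the strongest of which ranked at 68.1 to 88.3 in the stressed and 55.7 to 70.9 in the vehicle libraries.

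To compare the treatments, enrichments were put on a common log2 scale by quantile normalisation over all 17462 constitutive regions and tested with limma, with Benjamini-Hochberg adjustment over all of them. No intergenic region passed: 0 of 3051 had an adjusted p under 0.05, as did 0 of 17462 constitutive regions (0%), and the smallest adjusted p was 0.0693. At an unadjusted p under 0.05 there were 582 regions (19.1%), against a background of 13.0%. Of these, 439 had lower enrichment in the stressed libraries, where the background is 7.32% of all constitutive regions, and 143 had higher enrichment, where it is 5.68%. The share at an unadjusted p under 0.05 was 8.68% at gene ends, 16.3% inside genes and 18.9% beyond 200 kb. With gene ends left out of the fit, 503 intergenic regions (16.5%) reached it in limma, 292 lower and 211 higher. The background in that fit was 15.5%, so the excess and the lean to lower values were both smaller. The median difference, stressed minus vehicle, was -0.0801 over the intergenic regions, 0.0666 at gene ends, -0.044 inside genes, -0.175 beyond 200 kb and 0.0115 over all. Every stressed library was below every vehicle library at 366 regions (12%; background 7.23%) and above at 117 (3.83%; background 5.42%). A smaller share of cells with an open region and a lower accessibility in each cell cannot be told apart in such libraries. The count of 0 depended on settings; among those that gave calls, weighting libraries by their quality gave 43 calls (background 0.693%), leaving out regions that share a peak gave 32 (0.761%), and leaving out vehicle 8, stressed 8 or stressed 6 gave 10 (0.298%), 3 (0.0286%) and 1 (0.00573%).

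The difference between the treatments varied with distance from a gene. Its median was 0.046 for the 462 regions 1 to 5 kb away, -0.052 for 778 at 5 to 20 kb, -0.065 for 729 at 20 to 50 kb, -0.139 for 570 at 50 to 100 kb and -0.166 for 512 at 100 to 200 kb. The share of regions with a difference below 0 was 44.8% in the nearest class and 71.7% in the farthest. In the farthest class the median percentiles were 33.9, 26.8, 36.6 and 34.7 in stressed 6 to 9 and 44.5, 40.3 and 39.4 in vehicle 6 to 8, so every stressed library lay below. In the nearest class they overlapped, at 44.4, 40.4, 36.6 and 39.7 in the stressed and 38.3, 40.3 and 42.9 in the vehicle libraries. The gap between the nearest and the farthest class was 0.212 with all libraries and between 0.139 and 0.289 over the 17 alternative settings. Where regions at gene ends were left out of the normalisation the whole series shifted up, and the classes from 5 to 50 kb had medians of 0.015 and 0.005, so the order along distance held there but not the sign. This is a description of regions of 7 libraries, and regions of a library are not independent.

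**Figure D4:**
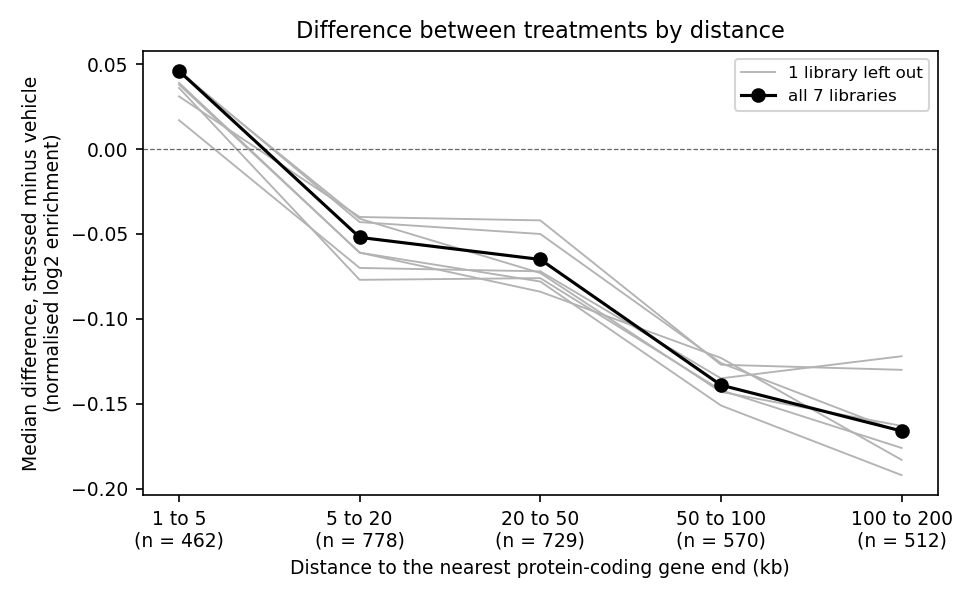
Median difference in normalised log2 enrichment, stressed minus vehicle (y axis), of the intergenic regions in 5 classes of distance to the nearest protein-coding gene end (x axis), for all 7 libraries (black) and with 1 library left out (grey). The median is 0.046 in the nearest class and -0.166 in the farthest, and the grey lines start at 0.017 or more and end at -0.122 or less.

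The regions with the smallest p per direction, none of which passed, were picked for their difference. Separation of the groups at them follows from that choice and is given as a description. At chr16:80573835-80574350, 23024 bp from DYNLRB2, a dynein light chain gene, the percentiles were 3.56, 3.63, 1.45 and 1.11 in stressed 6 to 9 and 60.4, 40.3 and 44.7 in vehicle 6 to 8. Normalised log2 enrichment averaged 2.45 ± 0.14 (SD) over the 4 stressed libraries and 3.57 ± 0.19 (SD) over the 3 vehicle libraries, a difference of -1.12 ± 0.20 (SE, adjusted p = 0.0693 in limma). The region was among the weakest in each stressed library and near the middle in each vehicle library. At chr9:2469823-2470184, 151603 bp from VLDLR, a receptor of lipoproteins and reelin and a target of the integrated stress response, the percentiles were 14.1, 6.83, 9.18 and 4.57 in the stressed and 55.7, 68.8 and 61.6 in the vehicle libraries, with a difference of -1.04 ± 0.19 (SE, adjusted p = 0.0693). The third, at chr8:109153053-109153325 near TRHR, the receptor gene of thyrotropin-releasing hormone, stood at 77.5, 69.2, 66.9 and 73.4 in the stressed and 96.4, 96.1 and 94.3 in the vehicle libraries (difference -0.80 ± 0.14, SE). It was thus among the strongest regions in each vehicle library and nearer to the middle in each stressed library.

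In the other direction, a region at chr10:89086831-89087276, 69772 bp from the death receptor gene FAS, ranked at 88.3, 86.5, 93.4 and 78.2 in the stressed and 44.5, 56.6 and 26.3 in the vehicle libraries. Its difference was 0.92 ± 0.18 (SE, adjusted p = 0.0703 in limma). A region near CCDC71L at chr7:106569208-106569388 ranked at 70.4, 74.9, 71.3 and 93.2 in the stressed and 44.5, 4.05 and 3.67 in the vehicle libraries. Vehicle 6 stood apart from the other vehicle libraries there. A difference of 2.17 ± 0.43 (SE) was found in the repeat-rich run near LOC124903442, at chr15:20338832-20339244, with percentiles of 74.8, 99.9, 99.6 and 99.5 in the stressed and 11.2, 21.0 and 62.9 in the vehicle libraries. This region shares its peak with others, so its value is that of a wide peak. With libraries weighted by quality, all 6 of these regions passed in limma, at adjusted p of 0.0183 to 0.0338. Other settings moved all 6 away from the threshold. Their adjusted p in limma was 0.271 to 0.351 with the replicate block and 0.238 without stressed 7.

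**Figure D5:**
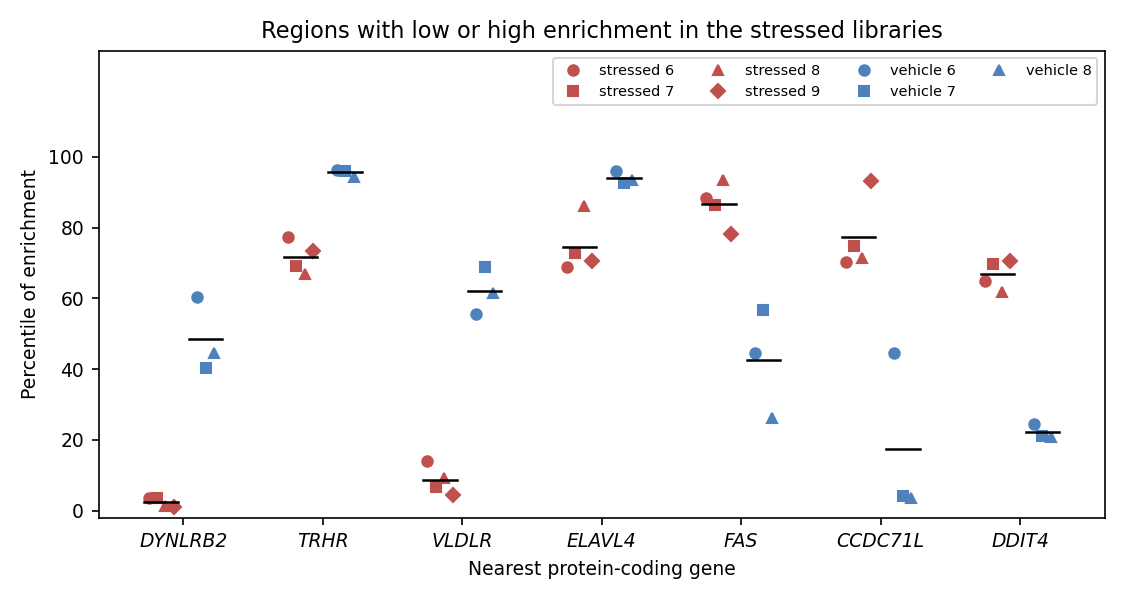
Percentile of enrichment (y axis) of 7 intergenic regions, named by the nearest protein-coding gene (x axis), with a point per library (stressed in red, vehicle in blue) and a black line at the group mean. The stressed libraries lie below all vehicle libraries at DYNLRB2, TRHR, VLDLR and ELAVL4 and above them at FAS, CCDC71L and DDIT4; no region passed the adjusted threshold.

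The lists of neuronal genes did not move together, and 0 regions of any list passed in limma. The median difference was -0.347 over the 6 pan-neuronal regions, -0.018 over the 62 near lineage transcription factors and 0.225 over the 10 dopaminergic ones, against -0.0801 over all 3051. It was below 0 at 4, 32 and 2 regions of these lists, and at 59.4% of the 3051. Near ELAVL4, a neuronal RNA-binding protein gene, the region at chr1:50251510-50252161 ranked at 69.0, 72.9, 86.1 and 70.7 in the stressed and 96.0, 92.6 and 93.4 in the vehicle libraries, with a difference of -0.63 ± 0.16 (SE, adjusted p = 0.124). A second region of its relative ELAVL2, at chr9:23551119-23551810, ranked at 64.8, 52.8, 61.9 and 39.7 in the stressed and 81.9, 91.5 and 84.4 in the vehicle libraries (difference -0.68 ± 0.17, adjusted p = 0.124). The groups did not overlap at either. NEUROD4, a proneural transcription factor gene, had a region at chr12:55056988-55057857 with percentiles of 74.1, 72.9, 75.1 and 73.4 in the stressed and 96.0, 94.7 and 85.9 in the vehicle libraries (difference -0.60 ± 0.16, adjusted p = 0.129). Of the 6 pan-neuronal regions 3 reached an unadjusted p under 0.05, all lower, of the 62 near lineage transcription factors 10 did so lower and 4 higher, and of the 10 dopaminergic ones 1 did so higher. For the lineage factors this is near the share of 19.1% over all 3051 regions.

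Of the 23 regions near axon guidance and adhesion genes, 17 had a difference below 0. Their median was -0.272, against -0.0801 over the 3051 intergenic regions and 0.0115 over all constitutive regions. An unadjusted p under 0.05 in limma was reached by 19.1% of all 3051 regions, with 439 lower and 143 higher. Near the axon guidance and adhesion genes it was reached by 6 regions, all lower. Among them, chosen after their values were seen, were the semaphorin genes SEMA6A, with a region 2698 bp away (difference -1.07, adjusted p = 0.0693 in limma), and SEMA6D (-0.85, adjusted p = 0.0967), and the netrin receptor gene UNC5D (-0.92, adjusted p = 0.0967). EFNA5, an ephrin ligand gene, had a region 1532 bp away that ranked at 76.8, 68.6, 61.9 and 67.7 in the stressed and 92.0, 80.8 and 87.6 in the vehicle libraries. This EFNA5 region shared its peak with another constitutive region in at least 1 library. The semaphorin gene SEMA6A also had a region with a difference of 0.59, so its regions did not all lean one way. Among markers of other cell types, 6 of 7 regions near mesenchymal or endothelial and 6 of 9 near glial genes had a difference below 0, the last near the 59.4% of all 3051, and their part in the neuronal values was not tested. These counts rest on few genes: the 7 lay near CDH5 (5 regions) and KDR (2), and 5 of the 9 lay near SLC1A3.

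Near genes of the integrated stress response, the program of ATF4, there were 4 regions. DDIT4, which encodes an inhibitor of mTORC1, had a region 12935 bp away at chr10:72260563-72260989 that ranked at 64.8, 69.7, 61.9 and 70.7 in the stressed and 24.6, 21.0 and 20.9 in the vehicle libraries. Normalised enrichment differed by 0.79 ± 0.17 (SE), with an adjusted p of 0.0845 in limma, and the groups were far apart. A second DDIT4 region, 21817 bp away, ranked at 56.9, 50.5, 75.1 and 61.1 in the stressed and 55.7, 30.9 and 35.8 in the vehicle libraries, with overlap. SLC7A5, a transporter of large neutral amino acids, had a region 22981 bp away that ranked at 69.0, 59.6, 43.4 and 34.7 in the stressed and 1.97, 48.8 and 9.91 in the vehicle libraries (difference 0.68 ± 0.26, adjusted p = 0.281). The fourth was the VLDLR region above, with the opposite sign. Of the 30 regions near immediate early genes 4 were higher and 2 lower at an unadjusted p under 0.05, near the share of 19.1% over all 3051. The lower ones, named after their values were seen, lay near MYC (difference -0.71) and DUSP1 (-0.47), and one of the higher ones was a FOS region at 89.2, 72.9, 83.8 and 80.3 in the stressed and 60.4, 73.5 and 62.9 in the vehicle libraries.

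At the limits of the distance rule, the nearest region kept lay 1002 bp from GRIK2, a glutamate receptor gene, and the first left out lay 995 bp from KCNK9, a potassium channel gene. Their percentiles were 4.46 to 77.2 and 17.7 to 71.3 over the 7 libraries. At the far side, a region 199867 bp from FBXO11 was kept, with percentiles of 18.2 to 37.7, and one 200474 bp from EDIL3 was not, with 19.7 to 61.9.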

How the data were processed

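ATAC-seq peak lists of 4 stressed and 3 vehicle libraries were used. Per the file headers, MACS2 made the calls, 1 list for each library. The submitters' processing notes name FastQC, Bowtie2, Picard and the build hg38 and give no versions. Settings of the caller, read filters and any Tn5 shift are not given in these sources, and such settings would change the number and width of regions. The deposited columns hold, per peak, a score, a fold enrichment (a ratio over background at the summit), a −log10 p-value, a −log10 q-value and the offset of the summit, as the authors' caller wrote them. The depth in reads is unknown, so the lengths of the lists and the ties between enrichments stand for precision.

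A region's enrichment in a library was the highest fold among peaks overlapping it by at least 1 bp. Fold enrichments are comparable only within a list, so they were given as percentiles, or log2-transformed and quantile-normalised over the 17462 constitutive regions. Treatments were compared with limma 3.58.1 in R 4.3.3 (moderated test with a mean trend, two-sided, unpaired, Benjamini-Hochberg over all constitutive regions, threshold 0.05), which was first tested on simulated data. Overlaps used Python 3.11.15, numpy 2.4.6 and pandas 2.3.3, and figures matplotlib 3.10.9.

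Gene positions (19974 protein-coding genes) and sequences came from RefSeq tables on GRCh38.p14 (hg38, which the files also use), and coordinates are 1-based. No genome sequence was used here, so motifs were counted in promoter windows and not around summits. Alternatives changed the overlap, the peak threshold, the enrichment measure, the normalisation, the regions in the fit, the library weights, the replicate block, and the libraries included. The regions and the gene lists were chosen with earlier results of these data known. Text names the regions strongest in all libraries, the widest, those of smallest p, those at the distance limits, and up to 4 per gene list, plus noncoding RNA genes; regions outside that rule, such as those used as examples of runs, were chosen after their values were seen.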

Additional observations from a re-analysis of the deposited data

Results flagged for a closer look

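Of 53 sets of 4 stressed values examined, 6 had a library whose gap to the nearest other exceeded Dixon's 95% critical value, and chance gives about 1 in 20. At the region near LOC124903442 (chr15:20338832-20339244) stressed 6 stood at percentile 74.8, against 99.5 to 99.9 in the other stressed libraries. At the region 151823 bp from ELAVL2, stressed 9 stood at percentile 95.6, against 98.6 to 99.1. The remaining 4 were regions in repeat-rich DNA at the top of the scale, where the libraries differed by fractions of a percentile: those near LOC124905450, LOC124903767 and LOC102723475, each with 1 stressed library at 99.8, and one near SHCBP1 with 1 at 99.9.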

How the results depend on the processing

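The number of regions was 2472 to 3583 under other overlaps, distance limits and left-out libraries, and 1526 when every peak needed a −log10 q of at least 5. The count of regions passing between treatments was 0. It became 10 with median-centring (background 0.160%), 43 with array weights (0.693%) and 6 with −log10 q of at least 5 (0.179%). Without regions that share a peak, an alternative added after seeing the data, it was 32 (0.761%). With 1 library left out it was 0 to 10 (background up to 0.298%). Each background is the share called among all constitutive regions of that fit. It stayed 0 for the other 6 settings, among them the added one without dense runs. The count at an unadjusted p under 0.05 was 300 with −log10 q of at least 5 (1526 regions) and 407 to 572 with 1 library left out. When only regions away from gene ends were normalised it was 503, with 292 lower and 211 higher. The median difference was -0.0111 when only regions away from gene ends were normalised, and -0.0942 to -0.0618 with 1 library left out. In that same normalisation the medians at 5 to 20 and 20 to 50 kb turned to 0.015 and 0.005, and with −log10 q of at least 5 the median at 1 to 5 kb turned to -0.017; the cause was not tested. The nearest distance class stood above the farthest in all 18 settings. For 22 named regions, 359 of 359 values kept their direction and 23 crossed the threshold. The shared differentiation numbers were not treated as pairs: correlations of same-numbered deviations were -0.0995, -0.0778 and -0.165. With the replicate block, 0 regions passed, 430 had an unadjusted p under 0.05 and the median difference was -0.0806. Motif shares around summits were not run. Ties limit the ranks, since 11.3% of the regions in vehicle 7 and 10.4% in stressed 8 tied at 1 enrichment value.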
